A study of Mus musculus with 4 samples.

Results

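The core transcription factors of blood stem cells were described here by 10 genes (Tal1, Lyl1, Lmo2, Gata2, Runx1, Erg, Fli1, Myb, Gfi1 and Gfi1b). They were measured by 20 of the 45101 probe sets on the array, namely every probe set whose annotation carries the symbol of 1 of these genes and no other. Tal1, Lyl1, Lmo2, Gfi1 and Gfi1b have 1 probe set each, Gata2, Erg and Fli1 have 2, Myb has 3 and Runx1 has 6. RNA came from bone marrow cells sorted as long-term haematopoietic stem cells (LT-HSC; Lin-, cKit+, Sca1+, CD34-, CD135-) or as their short-term counterpart (ST-HSC; same gate, but CD34+), on 2 arrays each. All mice were MxCre-, that is, they carried no Mx-Cre transgene, on a C57BL/6 background (written C57B/6 for 3 of the arrays), and each was injected 7 times with poly(I:C), a synthetic RNA that triggers interferon. The mice behind both LT-HSC arrays and ST-HSC replicate 2 were 7.5 weeks old and killed 4 weeks after their final injection, and those behind ST-HSC replicate 3 were 8.5 weeks old and killed 3 weeks after it. The tissue entry of the 2 ST-HSC arrays reads LT-HSC beside a CD34+ gate, and their titles were followed. The ages place the ST-HSC replicates in different mice, while the labels leave unsaid if the LT-HSC replicates share animals, so p-values measure the spread between these arrays, which may be technical in part.

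These factors bind enhancers of blood stem and progenitor cells in overlapping groups. TAL1 and LYL1 are basic helix-loop-helix proteins that bind E-box sequences with E-proteins such as TCF3. LMO2 binds no DNA and bridges the helix-loop-helix pair to a GATA factor through LDB1. RUNX1 binds DNA with its partner CBFB, ERG and FLI1 are ETS-domain factors, and MYB drives proliferation and differentiation of progenitors. GFI1 and GFI1B are zinc finger repressors that recruit the demethylase KDM1A with RCOR1. In mice, loss of Tal1, Lmo2, Gata2 or Runx1 blocks the formation of definitive blood, and loss of Gfi1 lets stem cells cycle more.

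The proximal promoters show what sequence lies before the starts of the genes that changed. RefSeq windows (build GRCm38.p6) were found for 8 of the 10 genes, with Lmo2 and Fli1 not among them, and 250 bases upstream of each of 14 starts were searched on both strands. The letters searched were AGATAA or AGATAG or TGATAA or TGATAG for GATA factors, CCGGAA or CAGGAA for ETS factors, TGTGGT or TGCGGT for Runt factors, CANNTG for the E-box, TAACNG or CAACNG for Myb and AATCNC for the GFI factors, and a CAACTG counts as both Myb and E-box. The windows below belong to genes with a probe set past the threshold and hold a GATA or an ETS match. Capitals mark GATA, ETS, Myb and GFI matches.
Tal1: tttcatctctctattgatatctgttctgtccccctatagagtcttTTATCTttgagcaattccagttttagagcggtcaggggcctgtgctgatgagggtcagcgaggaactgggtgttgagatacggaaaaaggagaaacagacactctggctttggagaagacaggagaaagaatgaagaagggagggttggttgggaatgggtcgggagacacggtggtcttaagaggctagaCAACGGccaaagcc
Lyl1: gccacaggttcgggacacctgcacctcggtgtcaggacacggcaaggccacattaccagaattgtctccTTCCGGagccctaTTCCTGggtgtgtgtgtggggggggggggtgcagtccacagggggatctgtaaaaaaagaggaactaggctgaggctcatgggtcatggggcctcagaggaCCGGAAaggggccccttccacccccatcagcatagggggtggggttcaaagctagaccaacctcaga
Runx1 distal: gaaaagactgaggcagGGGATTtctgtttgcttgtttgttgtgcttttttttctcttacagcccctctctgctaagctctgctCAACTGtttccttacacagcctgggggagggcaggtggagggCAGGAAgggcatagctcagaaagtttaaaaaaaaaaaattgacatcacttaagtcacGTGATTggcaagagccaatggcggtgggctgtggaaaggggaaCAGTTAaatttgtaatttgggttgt
Runx1 proximal: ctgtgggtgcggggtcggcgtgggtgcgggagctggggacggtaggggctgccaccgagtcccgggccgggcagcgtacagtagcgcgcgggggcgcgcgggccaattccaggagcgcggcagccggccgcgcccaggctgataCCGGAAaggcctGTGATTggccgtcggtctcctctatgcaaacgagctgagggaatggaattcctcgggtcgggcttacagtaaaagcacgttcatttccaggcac
Myb: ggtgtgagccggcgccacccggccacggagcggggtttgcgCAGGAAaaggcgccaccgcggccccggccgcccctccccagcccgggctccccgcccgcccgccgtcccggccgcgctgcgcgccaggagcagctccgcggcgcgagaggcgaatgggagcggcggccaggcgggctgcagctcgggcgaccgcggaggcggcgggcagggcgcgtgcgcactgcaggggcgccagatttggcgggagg
Gfi1b: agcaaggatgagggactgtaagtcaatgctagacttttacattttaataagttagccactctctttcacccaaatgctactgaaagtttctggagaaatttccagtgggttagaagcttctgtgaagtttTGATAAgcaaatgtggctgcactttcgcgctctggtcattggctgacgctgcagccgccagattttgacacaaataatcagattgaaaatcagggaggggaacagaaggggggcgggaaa
These run 5′ to 3′ and lie at chr4:115056176-115056425, plus strand (Tal1), chr8:84701207-84701456, plus strand (Lyl1), chr16:92826075-92826324, minus strand (Runx1 distal), chr16:92697330-92697579, minus strand (Runx1 proximal), chr10:21160985-21161234, minus strand (Myb) and chr2:28621983-28622232, minus strand (Gfi1b). The Lyl1 window held 3 ETS matches, at 181, 168 and 67 bases before the start, and no GATA match. The Tal1 window held 1 GATA match, 205 bases before the start, and the Gfi1b window 1, at 120 bases. The Myb window was 81.2% G or C and held 1 ETS match, while the Gfi1b window was 44.4% G or C. Of the 8 genes, 5 had an ETS match, 3 a GATA match, 5 an E-box, 3 a Myb match, 2 a GFI match and 0 a Runt match in any window. Over 32851 windows of the same length, 35.1% held the ETS letters, 26.5% the GATA letters, 66.2% an E-box, 43.1% the Myb letters, 29.4% the GFI letters and 18.6% the Runt letters. Of the 14 windows of these genes, 6 held the ETS letters, 3 the GATA letters, 6 an E-box, 3 the Myb letters and 3 the GFI letters.

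The deposited values are linear intensities, with array medians of 19.1 and 28.3 on the LT-HSC arrays and 26.9 and 26.0 on the ST-HSC arrays. Cd34, which separated the gates, read 18.3 and 23.5 on the LT-HSC arrays against 841 and 1142 on the ST-HSC arrays, and Kit, on which both gates selected, read 397 and 382 against 684 and 907. Both LT-HSC arrays carried high signal for cells that a lineage gate is meant to remove. The 7 plasma cell markers summed to intensities of 43004 and 43528 on the LT-HSC arrays against 1693 and 2785 on the ST-HSC arrays, and all 7 passed the test, higher in LT-HSC. Of 8 B cell markers, 7 had a probe set, and these summed to 4745 and 5241 on the LT-HSC arrays against 331 and 435 on the ST-HSC arrays. Among them 4 passed, higher in LT-HSC, while Ebf1, Pax5 and Vpreb3 did not pass. Blk and the plasma cell marker Prdm1 had ST-HSC log2 means of 4.93 and 5.02. These were under the mean of 5.03 needed for a test, so both were tested only through their LT-HSC values. The 7 of 8 maturing granulocyte markers with a probe set summed to 3796 and 492 on the LT-HSC arrays and 3420 and 47716 on the ST-HSC arrays, so ST-HSC replicate 3 stood apart from the other arrays. No marker of these lists was at 0 on all arrays. The part of these cells in the differences below was not tested, and since these are bulk RNA samples, fewer cells of a type and less RNA per cell cannot be told apart.

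**Figure D1:**
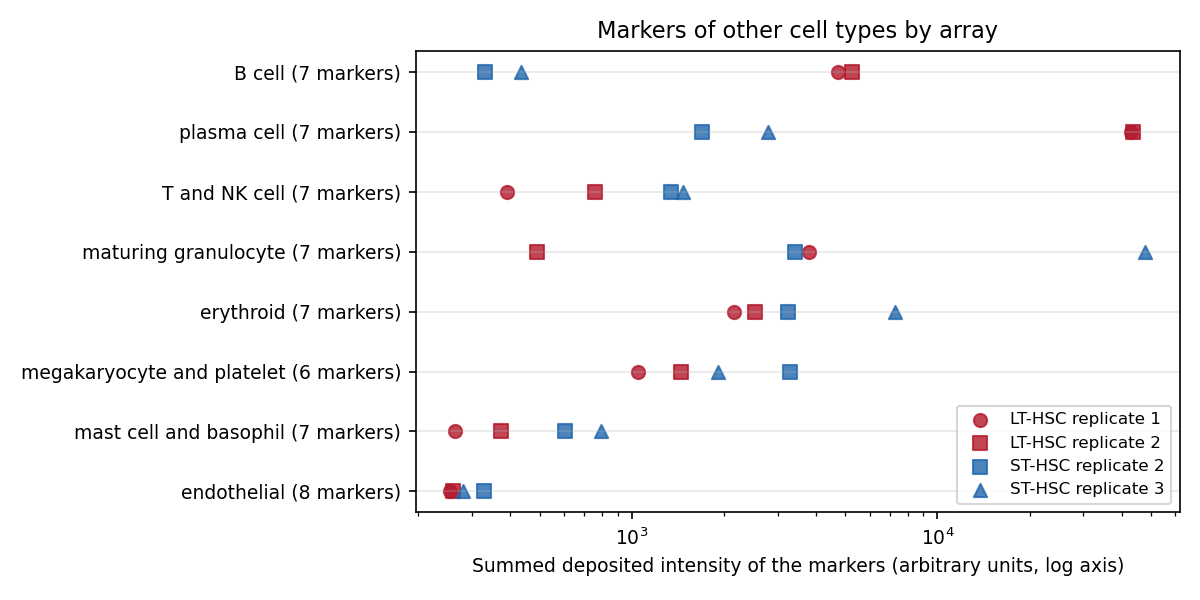
Summed deposited intensity of 8 lists of markers of other cell types on each array (log axis), LT-HSC in red and ST-HSC in blue. Plasma and B cell markers are high on both LT-HSC arrays, and granulocyte markers reach 47716 on ST-HSC replicate 3.

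Most of these factors read lower in LT-HSC than in ST-HSC. Values were taken as log2(intensity + 16), quantile normalized and compared with limma over the 27022 probe sets whose mean was above the 40th percentile. Differences are LT-HSC minus ST-HSC on that scale, on which the fold of dim probe sets is understated. Of the 20 probe sets 18 passed the filter, and of these 8 fell, 1 rose and 9 did not pass (Benjamini-Hochberg adjusted p under 0.05). Over all probe sets tested, 12.2% were called, 5.44% lower and 6.74% higher in LT-HSC. With each gene taken by its brightest probe set, Tal1, Lyl1, Lmo2, Myb and Gfi1b fell, 0 rose and Gata2, Runx1, Erg, Fli1 and Gfi1 did not pass. Over all 12831 genes taken that way 14.3% were called, 6.36% lower and 7.97% higher in LT-HSC. The median difference of the 18 probe sets was -1.04, against -0.08 over all probe sets tested. Both LT-HSC arrays lay below both ST-HSC arrays on 14 of the 18 and above them on 2, where 34.1% and 27% of all probe sets tested did so. Leaving out an LT-HSC array lowered the number called, here and over all probe sets tested, and leaving out an ST-HSC array raised it in both. A lone array then stands for its group, so only sizes are given here. The median difference of the member probe sets tested was -1.16 and -1.12 without LT-HSC replicate 1 and 2. It was -0.87 and -1.16 without ST-HSC replicate 2 and 3.

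**Figure D2:**
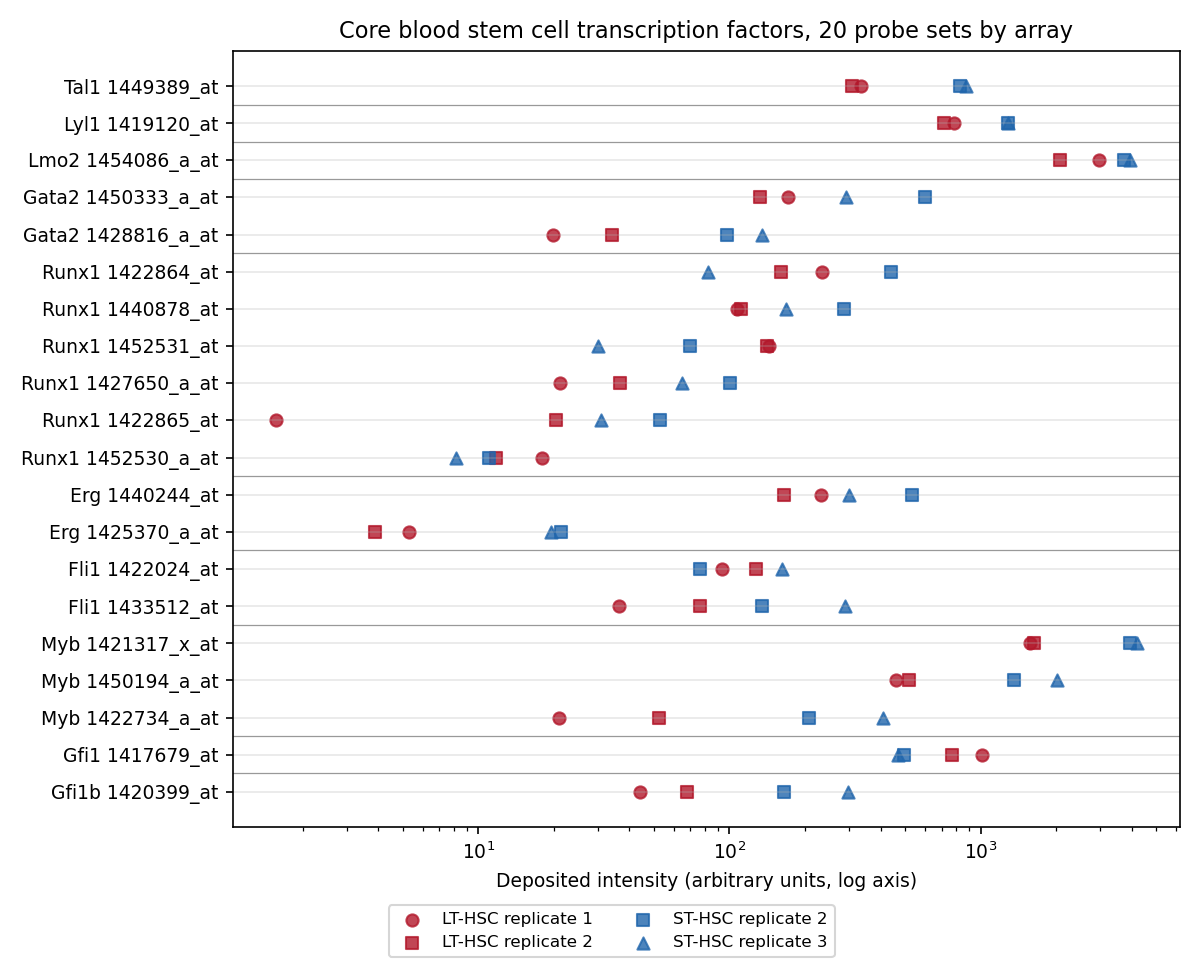
Deposited intensity of each of the 20 probe sets on each array (log axis), LT-HSC in red and ST-HSC in blue, with lines between genes. The red symbols lie left of the blue ones for Tal1, Lyl1, Lmo2, Gata2, Erg, Myb and Gfi1b and right of them for Gfi1, while Runx1 and Fli1 have probe sets of each kind or with overlap.

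Tal1, the helix-loop-helix factor that specifies blood, was 2.63-fold lower in LT-HSC. Its probe set read 335 and 308 on the LT-HSC arrays against 827 and 877 on the ST-HSC arrays, and the groups were far apart beside the gap within each. The log2 means were 8.42 ± 0.12 in LT-HSC and 9.82 ± 0.01 in ST-HSC (SD, n = 2 each; difference -1.40, SE 0.25, adjusted p = 0.0182). With any 1 array left out the difference lay between -1.44 and -1.30. The Tal1 call was lost without either LT-HSC array, where the number called over all probe sets tested also fell. Lyl1, the close relative of Tal1 that can stand in for it in adult stem cells, read 784 and 717 on the LT-HSC arrays against 1291 and 1292 on the ST-HSC arrays. It was 1.87-fold lower (difference -0.90, SE 0.22, adjusted p = 0.0421). Both helix-loop-helix genes were therefore lower on each LT-HSC array than on each ST-HSC array. The Lyl1 call was lost when each array was centred on its median (-0.67, adjusted p = 0.227) and without normalization between arrays (-0.77, adjusted p = 0.0636), and at an unchanged difference with no filter (adjusted p = 0.0583) and no intensity trend in the spread (adjusted p = 0.0844).

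Lmo2, the bridging protein, read 2965 and 2065 on the LT-HSC arrays against 3727 and 3926 on the ST-HSC arrays and was 1.87-fold lower (difference -0.90, SE 0.19, adjusted p = 0.0314). The groups did not overlap, but LT-HSC replicate 1 lay closer to ST-HSC than replicate 2 did. With each array centred on its median the Lmo2 difference was -0.52 (adjusted p = 0.364), and the call was also lost without normalization (-0.62, adjusted p = 0.0946) and without the intensity trend (adjusted p = 0.104). Gata2, the GATA factor of stem and early progenitor cells, read lower in LT-HSC on both of its probe sets. The brighter one, 1450333_a_at, read 172 and 133 on the LT-HSC arrays against 601 and 291 on the ST-HSC arrays and did not pass (difference -1.37, SE 0.42, adjusted p = 0.0808). The dimmer one, 1428816_a_at, read 19.8 and 34.1 on the LT-HSC arrays against 97.5 and 135 on the ST-HSC arrays and fell (difference -1.49, SE 0.34, adjusted p = 0.0367), but did not pass with no filter (adjusted p = 0.0567) or without ST-HSC replicate 3 (-1.21, adjusted p = 0.0731). The ST-HSC arrays were in opposite order on the Gata2 probe sets, with replicate 2 higher on the brighter and replicate 3 higher on the dimmer. Without ST-HSC replicate 2 or 3 the brighter one had differences of -0.86 and -1.90.

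**Figure D3:**
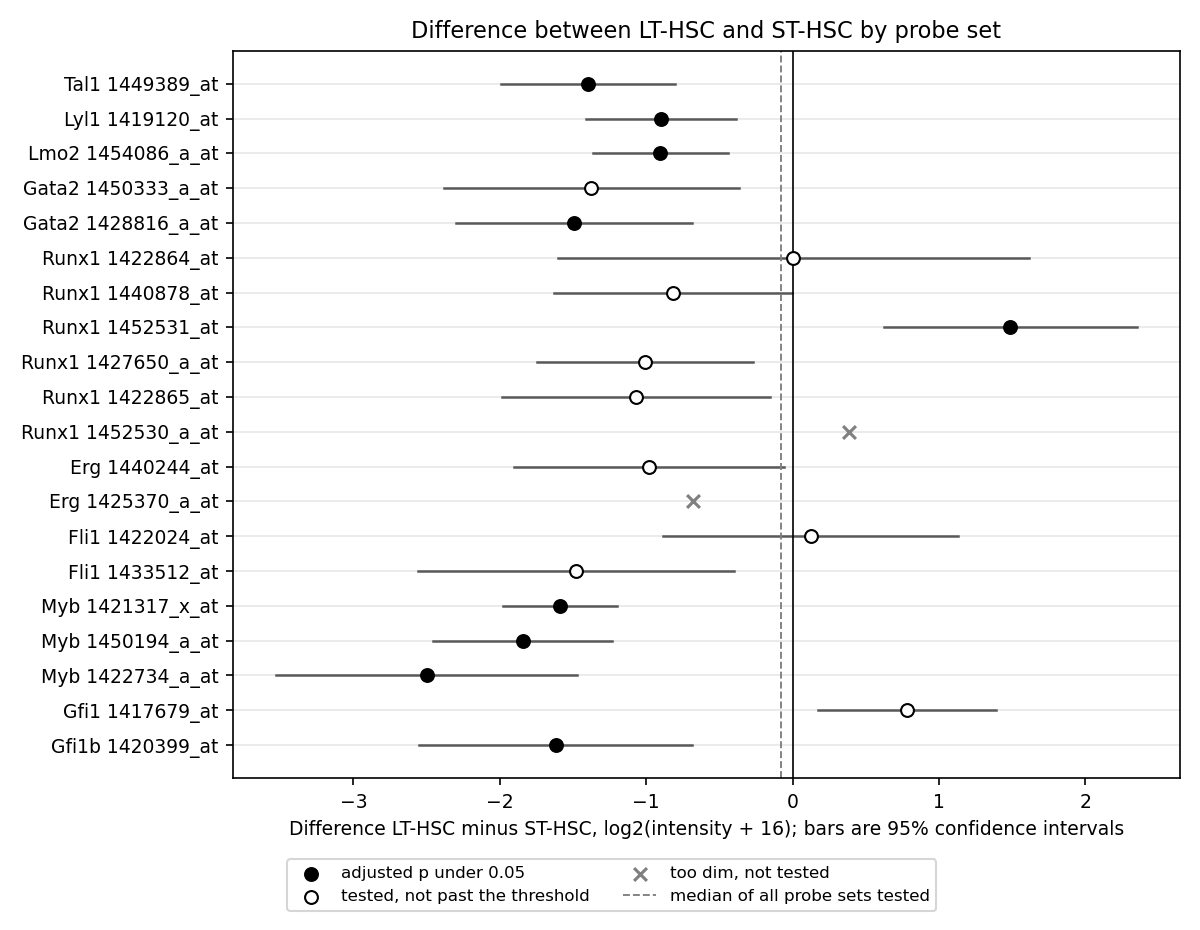
Difference LT-HSC minus ST-HSC in log2(intensity + 16) for the 20 probe sets, with 95% confidence intervals from limma for the 18 tested. Filled points passed the threshold, open points did not, crosses were too dim to test, and the dashed line is the median of all probe sets tested (-0.08).

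Runx1, the Runt factor through which blood arises from endothelium, gave different answers by probe set. One of its probe sets, 1452531_at, was 2.80-fold higher in LT-HSC, at 144 and 141 against 69.6 and 29.9 in ST-HSC (difference 1.49, SE 0.36, adjusted p = 0.0447). It was the sole one of the 18 that rose, and its call was lost without normalization between arrays (adjusted p = 0.073), with a pseudocount of 1 (adjusted p = 0.0524) and with no filter (adjusted p = 0.0641). The brightest, 1422864_at, read 235 and 160 on the LT-HSC arrays against 440 and 82.1 on the ST-HSC arrays. The ST-HSC arrays enclosed the LT-HSC arrays there, and the difference was 0.0062 with a 95% confidence interval of -1.60 to 1.61. The difference took opposite directions with an ST-HSC array left out: 1.12 without replicate 2 and -1.08 without replicate 3. The remaining 3 tested probe sets read lower on both LT-HSC arrays but did not pass on all 4 arrays. Probe set 1440878_at read 107 and 111 on the LT-HSC arrays against 287 and 167 on the ST-HSC arrays (difference -0.82, adjusted p = 0.164). With ST-HSC replicate 3 left out the difference was -1.14, and with replicate 2 left out it shrank to -0.50. Probe set 1427650_a_at read 21.2 and 36.7 on the LT-HSC arrays against 100.2 and 64.6 on the ST-HSC arrays (difference -1.01, adjusted p = 0.0815). Probe set 1422865_at, the dimmest of the 3, read 1.57 and 20.5 on the LT-HSC arrays against 52.8 and 30.8 on the ST-HSC arrays (difference -1.07, adjusted p = 0.118). Its LT-HSC log2 mean was 4.67, under the filter at 5.03, so it was tested only through its ST-HSC values. The sixth, 1452530_a_at, was too dim to test, at 17.9 and 11.8 on the LT-HSC arrays and 11.0 and 8.12 on the ST-HSC arrays. Relative to 1440878_at on the same array, 1452531_at lay at 0.34 and 0.32 on the LT-HSC arrays against -1.92 and -2.03 on the ST-HSC arrays on the log2 scale. The change of 2.30 is large beside the gaps within each pair, but it follows from the 2 differences given above and is no further test. A two-sided exact permutation test of 2 arrays against 2 cannot give a p below 0.333. Relative to the brightest, 1422864_at, probe set 1452531_at lay at -0.59 and -0.18 on the LT-HSC arrays against -2.58 and -1.15 on the ST-HSC arrays. That change, 1.48, was not large beside the gap between the ST-HSC arrays. The gene has 2 annotated starts, a distal and a proximal one, whose windows are printed above, and which transcripts each probe set reads was not tested.

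The ETS factors did not pass on any probe set. Erg, which sustains stem cells in adult marrow, read 231 and 165 on the LT-HSC arrays against 533 and 298 on the ST-HSC arrays on 1440244_at (difference -0.98, SE 0.39, adjusted p = 0.146). The groups did not overlap, and without ST-HSC replicate 3 the difference was -1.40, whereas without ST-HSC replicate 2 it shrank to -0.56. Its other probe set, 1425370_a_at, was too dim to test, at 5.29 and 3.88 on the LT-HSC arrays and 21.3 and 19.4 on the ST-HSC arrays. Fli1, which also governs megakaryocytes, had probe sets that parted. On 1422024_at it read 93.0 and 128 on the LT-HSC arrays against 76.3 and 162 on the ST-HSC arrays, with overlapping groups (difference 0.12, 95% confidence interval -0.89 to 1.13). On 1433512_at it read 36.3 and 76.4 on the LT-HSC arrays against 135 and 290 on the ST-HSC arrays (difference -1.48, SE 0.45, adjusted p = 0.08). That probe set passed with each array centred on its median (-1.53, adjusted p = 0.0305). Its difference was -2.10 without ST-HSC replicate 2, whereas without ST-HSC replicate 3 it shrank to -0.89.

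Myb fell on each of its 3 probe sets, and these held the largest decrease of the 18. The brightest, 1421317_x_at, read 1570 and 1639 on the LT-HSC arrays against 3948 and 4187 on the ST-HSC arrays and was 3.01-fold lower (difference -1.59, SE 0.16, adjusted p = 0.00266). The spread within each pair was small beside this gap, with log2 means of 10.56 ± 0.06 in LT-HSC and 12.14 ± 0.07 in ST-HSC (SD, n = 2 each). The suffix of that name marks, in this manufacturer's scheme, a probe set in which some probes may match other transcripts. Probe set 1450194_a_at read 460 and 520 on the LT-HSC arrays against 1364 and 2024 on the ST-HSC arrays (difference -1.84, SE 0.26, adjusted p = 0.00798). Probe set 1422734_a_at read 20.9 and 52.4 on the LT-HSC arrays against 208 and 409 on the ST-HSC arrays (difference -2.50, SE 0.43, adjusted p = 0.0165). Tal1 and the 3 Myb probe sets were the ones whose calls held in all 7 settings of normalization, pseudocount, filter and spread model that were tried on all 4 arrays. With any 1 array left out, the difference of 1421317_x_at lay between -1.63 and -1.53, and that of the dimmest, 1422734_a_at, between -3.05 and -1.98.

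The paralogous repressors Gfi1 and Gfi1b lay on opposite sides of 0. Gfi1b, the repressor of the erythroid and megakaryocyte branch that also restrains stem cell release from the marrow in mice, read 44.1 and 67.6 on the LT-HSC arrays against 165 and 298 on the ST-HSC arrays. It was 3.07-fold lower (difference -1.62, SE 0.39, adjusted p = 0.0435), a call that was lost with a pseudocount of 64 (-1.18, adjusted p = 0.0535) and with no filter (adjusted p = 0.0576). The Gfi1b difference was -2.12 with ST-HSC replicate 2 left out, and -1.14 with ST-HSC replicate 3 left out. Gfi1, the repressor of stem cell proliferation and of neutrophil and lymphoid development, read 1010 and 771 on the LT-HSC arrays against 497 and 468 on the ST-HSC arrays. It was 1.72-fold higher in LT-HSC but did not pass (difference 0.78, SE 0.26, adjusted p = 0.0931). Without ST-HSC replicate 2 or 3 Gfi1 had differences of 0.89 and 0.72. Relative to Gfi1b on the same array Gfi1 was 2.40 higher in LT-HSC on the log2 scale, with both LT-HSC arrays above both ST-HSC arrays (two-sided exact permutation p = 0.333, the smallest that 2 arrays against 2 can give). Gfi1 is also expressed in lymphoid cells and Gfi1b in megakaryocyte and erythroid cells. The 6 of 8 megakaryocyte and platelet markers with a probe set summed to 1050 and 1449 on the LT-HSC arrays against 3302 and 1919 on the ST-HSC arrays, and the 7 of 8 erythroid markers with one summed to 2165 and 2522 against 3241 and 7268. Of the 6 megakaryocyte and platelet markers, 2 passed, both lower in LT-HSC, while Itgb3 lay on the other side (1.42, adjusted p = 0.0841). Gp5, 1 of those 2, had an LT-HSC log2 mean of 4.56, under the filter at 5.03. It was therefore tested only through its ST-HSC values. Of the 5 erythroid markers tested, 1 passed, Car2, lower in LT-HSC. Car2 read 1863 and 1770 on the LT-HSC arrays against 2990 and 4695 on the ST-HSC arrays, and so made up most of each sum. The groups overlapped on 3 of the 5, among them Car1, at 204 and 558 against 103 and 1787. Over both lists, Hba-a1 read below 16 on every array and no marker was at 0 on all arrays. The part of such cells in the Gfi1b difference was not tested.

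**Figure D4:**
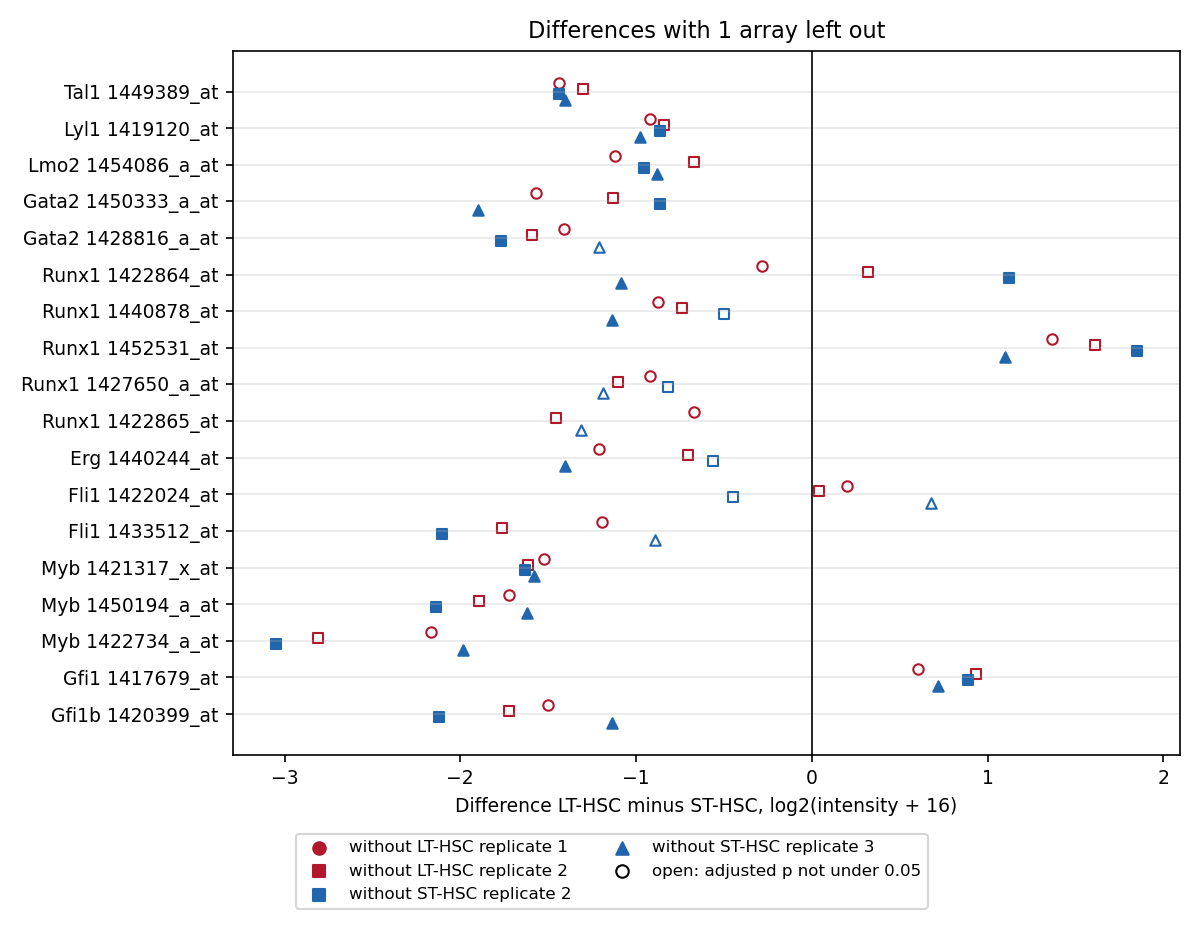
Difference LT-HSC minus ST-HSC in log2(intensity + 16) for the 18 tested probe sets with 1 array left out, red for an LT-HSC and blue for an ST-HSC array, filled where the adjusted p was under 0.05. Tal1, Lyl1 and Myb 1421317_x_at keep close values, while Runx1 1422864_at runs from -1.08 to 1.12.

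Other cells that express these factors were also measured. Mast cells and basophils share Gata2, Tal1 and Lyl1 with stem cells. The 7 of 8 mast cell and basophil markers with a probe set summed to 265 and 374 on the LT-HSC arrays against 604 and 792 on the ST-HSC arrays. Ms4a2 was lower and Mcpt8 higher in LT-HSC, and the others were not past the threshold. Ms4a2 had an LT-HSC log2 mean of 4.59, under the filter at 5.03, so it was tested only through its ST-HSC values. Endothelial cells share Erg, Fli1, Tal1 and Lmo2. The 8 endothelial markers summed to 256 and 261 on the LT-HSC arrays and 328 and 281 on the ST-HSC arrays, and 0 of the 6 tested passed in limma, with Plvap and Robo4 at an unadjusted p of 0.027 and 0.0437. Cdh5, the defining cadherin of endothelium, read below 16 on every array and lay under the filter. T and NK cell markers summed to 393 and 759 on the LT-HSC arrays against 1340 and 1476 on the ST-HSC arrays over the 7 of 8 with a probe set. Of the 4 tested, 3 (Cd2, Cd3g and Gzma) were higher in LT-HSC and Nkg7 was lower. Cd3g and Gzma had ST-HSC log2 means of 4.46 and 4.67, under the filter at 5.03. Both were therefore tested only through their LT-HSC values. Nkg7 alone read 137 and 313 on the LT-HSC arrays against 1277 and 1404 on the ST-HSC arrays, so it set the direction of the sum.

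Among the 22 partners and cofactors of these factors, 3 fell, 1 rose and 18 did not pass, with a median difference of -0.16. The share called was 18.2%, near the 14.3% over all genes. Ssbp2, which steadies the LDB1 complex, read 379 and 398 on the LT-HSC arrays against 972 and 1243 on the ST-HSC arrays (difference -1.53, SE 0.24, adjusted p = 0.0127). This was the 1 probe set called of the 4 tested for Ssbp2. Cbfb, the partner of RUNX1, read 936 and 920 on the LT-HSC arrays against 1641 and 1644 on the ST-HSC arrays (difference -0.99, SE 0.20, adjusted p = 0.0268). Hdac2, a histone deacetylase of repressor complexes, fell by 1.53 (SE 0.37, adjusted p = 0.0434), with differences of -2.09 with ST-HSC replicate 2 left out and -1.02 with replicate 3 left out. For Hdac2, 2 of 3 tested probe sets were called, both lower. Of the E-proteins that pair with TAL1, Tcf4 rose, at 3145 and 2872 on the LT-HSC arrays against 1019 and 293 on the ST-HSC arrays (difference 2.21, SE 0.54, adjusted p = 0.0452), and 3 of its 5 tested probe sets were called higher. The Tcf4 difference was 3.21 with ST-HSC replicate 2 left out and 1.31 with replicate 3 left out, and its call was lost with a pseudocount of 1 (adjusted p = 0.0504). The E-proteins Tcf3 (-0.32, adjusted p = 0.508) and Tcf12 (0.15, adjusted p = 0.692) did not pass. Tcf4 is also high in some lymphoid cells, whose B cell and plasma cell markers moved the same way as given above, and their part in it was not tested. Ldb1, the hub of the LMO2 complex, lay at 0.63 (SE 0.30, adjusted p = 0.212). Of the GFI corepressors, Kdm1a lay at -0.69 (adjusted p = 0.158) and Rcor1 at 1.24 (adjusted p = 0.121), with another Rcor1 probe set called lower. Cbfb did not pass with each array centred on its median (-0.71, adjusted p = 0.189), and Cbfb, Hdac2 and Tcf4 did not pass without the intensity trend. Tcf4 and Hdac2 also lost their calls with no filter. Leaving out either LT-HSC array lowered the number of partners called, as it did over all probe sets tested. The median difference of the partners was then -0.16 without replicate 1 and -0.23 without replicate 2.

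**Figure D5:**
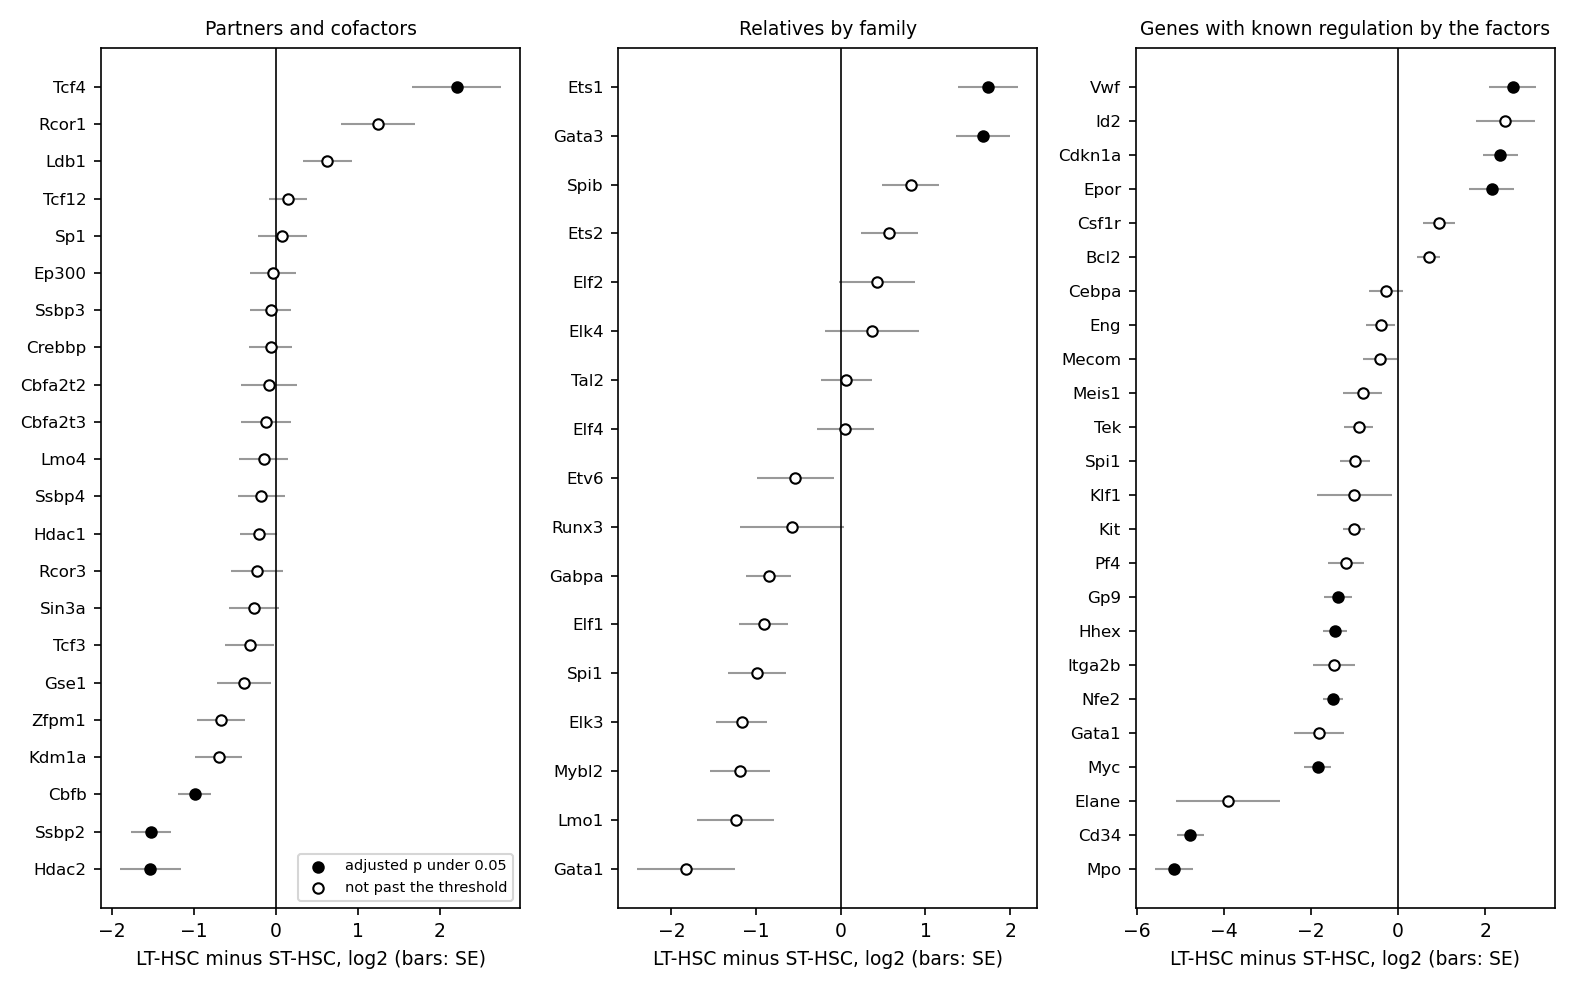
Difference LT-HSC minus ST-HSC on the log2 scale for genes tested in 3 lists (bars are the moderated standard error), filled where the adjusted p was under 0.05. Tcf4 rises and Hdac2, Ssbp2 and Cbfb fall among the partners, and Gata3 and Ets1 rise among the relatives.

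Among 20 relatives from the same protein families, 17 were tested, of which 2 rose, 0 fell and 15 did not pass (11.8% called, against 14.3% over all genes). Their median difference was -0.54, and its direction was not stable: it was 0.09 with a pseudocount of 1, 0.03 with the mean of a gene's probe sets and 0.15 without ST-HSC replicate 2. Gata3, the GATA factor of T cells and innate lymphocytes that stem cells also express, read 199 and 195 on the LT-HSC arrays against 73.8 and 42.8 on the ST-HSC arrays (difference 1.68, SE 0.32, adjusted p = 0.022). Ets1, an ETS factor prominent in lymphocytes, read 487 and 652 on the LT-HSC arrays against 132 and 208 on the ST-HSC arrays (difference 1.74, SE 0.36, adjusted p = 0.0278), on 1 of its 4 tested probe sets. Both genes rose while Gata2 read lower and the ETS members did not pass. Elf1 lay at -0.91 on its brightest probe set (adjusted p = 0.0835 in limma) and did not pass, while 1 of its 2 tested probe sets was called higher. Gata1, the GATA factor that follows Gata2 in erythroid and megakaryocyte cells, read 51.5 and 236 on the LT-HSC arrays against 368 and 664 on the ST-HSC arrays and did not pass (difference -1.82, SE 0.58, adjusted p = 0.086). Mybl2, the Myb relative tied to the cell cycle, lay at -1.20 (adjusted p = 0.073). With each array centred on its median 5 relatives passed, 2 higher and 3 lower. Leaving out either LT-HSC array lowered the number of relatives called, as it did over all probe sets tested. The median difference of the relatives was then -0.57 without replicate 1 and -0.69 without replicate 2.

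Of 26 genes known to be regulated by these factors, 24 were tested, of which 6 fell, 3 rose and 15 did not pass, with a median difference of -0.998. The share called was 37.5%, against 14.3% over all genes. The list was chosen with earlier results of these data known and includes Cd34, so this share is not a test of the factors' targets. Cd34 fell by 4.77 (SE 0.30, adjusted p = 0.000456), which the gate itself sets. Mpo, myeloperoxidase and a target of Runx1 and Myb, read 133 and 112 on the LT-HSC arrays against 2876 and 7296 on the ST-HSC arrays (difference -5.16, SE 0.44, adjusted p = 0.00134). Nfe2, a factor of erythroid and megakaryocyte cells, fell by 1.50 (SE 0.22, adjusted p = 0.00948), and Myc, which drives growth, by 1.85 (SE 0.31, adjusted p = 0.0153). Hhex and Gp9 were the others that fell. The 3 that rose were Cdkn1a, the cell cycle inhibitor p21 (2.35, SE 0.40, adjusted p = 0.0153), Vwf, von Willebrand factor (2.63, SE 0.53, adjusted p = 0.0265), together with Epor, the receptor of erythropoietin (2.15, SE 0.52, adjusted p = 0.0431), which did not pass with a pseudocount of 1, no filter or no intensity trend. Vwf lay at 3.47 with ST-HSC replicate 2 left out and 1.88 with replicate 3 left out, and Epor at 1.47 and 2.87 in the same order. Kit, a target of the TAL1 complex, just missed the threshold (-1.01, SE 0.26, adjusted p = 0.0501) and was not called. Bcl2 lay at 0.70 on its brightest probe set (adjusted p = 0.124 in limma) and did not pass, while 2 of its 5 tested probe sets were called higher. The number called fell without an LT-HSC array and rose without an ST-HSC array, as it did over all probe sets tested. The median difference was -0.99 and -0.96 without LT-HSC replicate 1 and 2, and -0.92 and -0.96 without ST-HSC replicate 2 and 3.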

How the data were processed

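RNA of 2 LT-HSC and 2 ST-HSC samples was measured on Affymetrix mouse arrays. Trizol extracts were amplified in 2 rounds and biotin-labelled, per the labels' protocols. The deposited values are linear intensity values, 1 per probe set and array. How probes were summarised or scaled is not given in the sources used here. Array numbers, not counts, limit the precision. Array medians spanned 0.33 in log2(intensity + 16), above the limit of 0.2 set for using values as they were, so arrays were quantile normalized. The 64 control probe sets and those whose mean was at or under the 40th percentile were not tested. LT-HSC was compared with ST-HSC with limma 3.58.1 in R 4.3.3 (lmFit, eBayes with an intensity trend, 2 residual and 4.85 prior degrees of freedom, two-sided), with Benjamini-Hochberg adjustment over 27022 probe sets. The procedure was tested on simulated data. Symbols came from the supplied platform annotation, which gave 1 symbol to 34945 probe sets, several to 932 and none to 9160, and the Entrez identifiers of all 20 member probe sets led to the same symbols in RefSeq (GRCm38.p6). Gene values are those of the brightest probe set with 1 symbol. All members are named, with every probe set, and of each other list the 4 genes of smallest p among those called and those needed as exceptions. Of the genes named, Tcf3, Tcf12, Ldb1, Kdm1a, Rcor1, Gata1, Mybl2, Elf1, Kit, Bcl2, Hhex, Gp9, Cdkn1a, Vwf, Epor, and the single markers of other cells were added after their values were seen. The members and lists were chosen with earlier results of these data known. Alternatives were array centring, no normalization, pseudocounts of 1 and 64, no filter or the 60th percentile, no intensity trend, the mean of a gene's probe sets, and each array left out, with the filter applied again. 1 further part of the mice's genotype, shared by both groups, is not reported here.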

Additional observations from a re-analysis of the deposited data

How the results depend on the processing

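With only 2 arrays a group, calls moved more with an array left out than with any setting tried on all 4 arrays. With 1 array left out, a lone array is assumed to vary like the other group, and the counts past the threshold ran from 357 to 8786 over all probe sets, 0 to 13 for the member probe sets, 0 to 9 for the member genes, 0 to 7 for partners and cofactors, 0 to 11 for relatives and 2 to 18 for genes with known regulation. The zeros came without an LT-HSC array, and limma was the one tool run. On all 4 arrays, the member probe sets past the threshold numbered 9. They numbered 5 with no filter, 6 with no normalization between arrays, 7 with no intensity trend and 8 or 9 in the other settings. For the counts that follow, only the larger moves are given. The member genes numbered 5, and 3 with arrays centred on their medians, with no normalization between arrays, with no filter and with no intensity trend. Partners and cofactors numbered 4, 2 with no filter and 1 with no intensity trend. Relatives numbered 2, 5 with arrays centred on their medians and 1 with the mean of a gene's probe sets. Without normalization the median of all probe sets tested was -0.16, against -0.08. Of the 18 member probe sets, the sign changed for Runx1 1422864_at with no normalization (-0.0084), with a pseudocount of 64 (-0.053) and with arrays left out (-1.08 to 1.12), and for Fli1 1422024_at with no normalization (-0.034) and with arrays left out (-0.45 to 0.68). The other 16 kept their sign under the alternatives run. Without an ST-HSC array each of the 6 counts above was higher than on all 4 arrays and without an LT-HSC array each was lower. The spread within the pair was wider in ST-HSC (SD 0.49, against 0.35 in LT-HSC, over all probe sets tested), and its part in these moves was not tested. No paired analysis was possible because the groups share fewer than 2 replicate numbers.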
